A study of Mus musculus with 8 samples.

Results

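The M-CSF and GM-CSF receptors, the macrophage growth factor M-CSF itself and the transcription factor PU.1 were measured as a group of 9 genes, Csf1r, Csf1, Csf2ra, Csf2rb, Csf2rb2, Csf3r, Il3ra, Spi1 and Kit, out of 46517 genes in the table. The 9 genes were chosen by name, and all 9 were found by their Ensembl identifiers and passed the filter on low values. The libraries came from osteoclasts, the multinucleated cells that resorb bone, grown from femoral bone marrow of mice aged 6 to 8 weeks. One genotype was Elmo1-/-, a global deletion of the engulfment adaptor gene Elmo1, and the other was Elmo1+/-, which keeps an intact copy of Elmo1 and served as the control, although its sample titles read WT. Each genotype had 4 libraries, numbered 1 to 4, described as biological replicates. All cultures were kept for 16 h in medium with serum, after which the suspension cells were grown with 10% conditioned medium of L929 cells, a mouse fibroblast line that secretes M-CSF, and, for 7 days, RANKL at 50 ng/ml. The study's methods add a step of 3 days in L929 medium before RANKL, at the end of which the attached cells were collected and replated, whereas the labels do not mention it. The cultures were not sorted, so each library could hold macrophages and other marrow cells beside osteoclasts, and no library from marrow before RANKL was analysed here.

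M-CSF, encoded by Csf1, binds the receptor tyrosine kinase encoded by Csf1r and keeps osteoclast precursors alive and dividing, while RANKL drives them to fuse and to resorb bone. GM-CSF, IL-3 and IL-5 each bind their own alpha chain, and the alpha chain of each pairs with a common beta chain encoded by Csf2rb; mice also carry Csf2rb2, a near copy whose product serves the IL-3 receptor. PU.1, encoded by Spi1, is an ETS-family transcription factor that macrophages and osteoclasts both need, and Csf1r is among its best known targets. GM-CSF and IL-3 are known to hold marrow precursors back from the osteoclast fate.

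The sequences of the beta chain pair are shown because the counts of both genes depend on telling these sequences apart. Over 2628 aligned coding bases, Csf2rb and Csf2rb2 were 95.2% identical. A stretch of 90 coding bases in which they differ most densely is given below 5′ to 3′, at coding positions 308 to 397 of Csf2rb and 311 to 400 of Csf2rb2 in the GENCODE transcripts, with the 16 bases that differ in capitals.
Csf2rb: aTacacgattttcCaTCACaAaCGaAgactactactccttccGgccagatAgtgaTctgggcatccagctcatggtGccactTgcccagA
Csf2rb2: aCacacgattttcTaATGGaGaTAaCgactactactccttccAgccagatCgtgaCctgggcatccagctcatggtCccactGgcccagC
Of all 75-base windows in the transcripts of each gene, the length of the reads sequenced, 7.15% of those of Csf2rb and 10.6% of those of Csf2rb2 occurred without a mismatch in the other gene. Reads from these windows could have been split between both genes or left out, so the value of either gene carries that uncertainty. Csf3r shared 2.95% of its windows with other genes, and Csf1r, Csf1, Csf2ra, Il3ra, Spi1 and Kit shared none. Exons of Csf1r also overlap those of Hmgxb3 on the opposite strand, and no source used here says whether the counting used strand.

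The genes lie on 8 chromosomes in the GRCm38 annotation of GENCODE. Csf2rb (chromosome 15, 78325752 to 78353847, plus strand) and Csf2rb2 (chromosome 15, 78282507 to 78305721, minus strand) are neighbours that point away from each other. Promoter windows from RefSeq, 250 bases before to 50 bases after a start site in GRCm38.p6, were available for Csf1, Csf2ra, Csf2rb2, Csf3r, Il3ra and Kit. They were searched on both strands for GAGGAA, the core that PU.1 is known to favour, which reads TTCCTC on the other strand. The letters occurred in 28.3% of all 32851 promoter windows, and the shorter ETS core GGAA occurred in 96.0% of them. Csf2ra and Csf2rb2 each held 2 copies, Csf3r and Kit held 1, and Il3ra and Csf1 held 0. The windows of both receptor alpha chains of the beta chain family are shown, since their levels are compared below, with GAGGAA in capitals; that of Csf2ra is at chr19:61228369-61228668 on the minus strand and that of Il3ra at chr14:14346245-14346544 on the plus strand.
Csf2ra: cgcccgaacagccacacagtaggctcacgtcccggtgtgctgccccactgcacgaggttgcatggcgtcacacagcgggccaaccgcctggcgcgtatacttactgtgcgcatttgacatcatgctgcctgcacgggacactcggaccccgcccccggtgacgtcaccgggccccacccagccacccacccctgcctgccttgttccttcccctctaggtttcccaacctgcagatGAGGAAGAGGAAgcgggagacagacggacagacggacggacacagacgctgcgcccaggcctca
Il3ra: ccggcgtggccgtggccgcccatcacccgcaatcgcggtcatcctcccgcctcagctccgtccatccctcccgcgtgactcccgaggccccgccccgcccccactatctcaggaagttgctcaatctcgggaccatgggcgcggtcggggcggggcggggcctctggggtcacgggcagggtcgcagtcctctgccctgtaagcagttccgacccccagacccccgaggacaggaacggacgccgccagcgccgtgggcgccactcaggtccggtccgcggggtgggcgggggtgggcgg
In Csf2ra the copies adjoin each other and start 14 and 8 bases before the start site. A match describes the letters only and is not evidence of binding.

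Library totals, recovered as whole reads, ranged from 20905502 to 40846651. Elmo1 itself was at 1423 to 1769 normalized counts in the Elmo1+/- libraries and at 274 to 316 in the Elmo1-/- libraries, so the genotypes did not overlap (log2 fold change −2.44, SE 0.09, limma adjusted p = 8.4e-06). The first principal component, with 62.3% of the variance, separated libraries 1 and 2 from libraries 3 and 4 in both genotypes, with Elmo1-/- library 2 closest to the other side. The labels do not say what these numbers stand for. The study's methods describe a pair of experiments without naming which mice belonged to which, so experiment and number cannot be told apart. The 10 osteoclast markers, with Ctsk, which encodes the collagen-degrading protease cathepsin K, among them, were all higher in libraries 3 and 4 than in libraries 1 and 2 without overlap, beside 18.1% of all genes. Their summed level ran from 450909 in Elmo1-/- library 1 to 1173010 in Elmo1-/- library 3. Summed macrophage markers lay between 109675 and 150265, stromal markers between 618 and 1431, dendritic markers between 487 and 767 and lymphoid markers between 0.989 and 7.00, and 0 genes of any marker list were called between genotypes.

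Levels of the 9 genes spanned a wide range, which was compared per kilobase of merged exons. Csf1r was at 7673 normalized counts per kilobase on average over the 8 libraries, from 6561 to 9253, which was rank 240 of 14096 genes. Spi1 followed at 5110, from 4517 to 5446, rank 353. The receptor for the growth factor added to the cultures and the lineage factor were thus the most abundant of the 9, and their ranges did not overlap.

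The beta chain family came next. Csf2rb was at 1216 normalized counts per kilobase, its partner Csf2ra, the alpha chain of the GM-CSF receptor, at 979, and Csf2rb2 at 815. By merged exons, the ranges of Csf2rb and Csf2ra overlapped over the 8 libraries, as did those of Csf2ra and Csf2rb2. The order within these pairs was thus not resolved by that length, and the overlap does not hold with the longest transcript. Merged exons and longest transcript are 7277 and 4900 bases for Csf2rb and 2871 and 2277 for Csf2ra. For Csf2rb2 both are 4740 bases. Csf3r, the receptor for G-CSF, was at 237 and Il3ra, the IL-3 receptor alpha chain, at 136. Their ranges overlapped over the libraries, but within every library Csf3r was the higher per kilobase.

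Csf1 was at 34.7 normalized counts per kilobase and Kit, the receptor for stem cell factor found on progenitors and mast cells, at 1.98, rank 13939. In whole reads, Kit rested on 10 to 26 reads per library in the 7 libraries accepted for count tests, so its values carry a large counting error. The order of the 9 genes by mean was the same with the length of the longest transcript, with libraries rescaled to equal totals and with any single library left out.

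In the M-CSF axis, none of the genes differed between genotypes beyond the spread of the libraries. Csf1r was at 47719, 45058, 40708 and 37886 normalized counts in Elmo1+/- libraries 1 to 4, and at 53429, 43131, 41540 and 44973 in Elmo1-/- libraries 1 to 4. The genotypes overlapped, and the highest value was that of Elmo1-/- library 1. The means were 42842 ± 4390 and 45768 ± 5296 (SD, n = 4 each), a log2 fold change of 0.09 (SE 0.11, 95% interval −0.16 to 0.35; limma adjusted p = 0.999928).

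Csf1, the cells' own transcript of the growth factor, was at 130, 148, 244 and 172 normalized counts in Elmo1+/- and at 172, 176, 190 and 232 in Elmo1-/-. Each genotype had its lowest value in a library numbered 1, and Elmo1+/- library 3 was the highest of all 8. The log2 fold change was 0.18 (SE 0.20, 95% interval −0.27 to 0.63; limma adjusted p = 0.999928).

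Spi1 was the steadiest of the 9, with a coefficient of variation of 5.77% over the 8 libraries against a median of 13.1% over all tested genes. That median includes genes with few reads, whose counting error is larger, and was not matched to the level of Spi1. It was at 13865, 13300, 14543 and 14060 normalized counts in Elmo1+/- and at 13519, 12173, 14677 and 14025 in Elmo1-/-. The lowest library was Elmo1-/- library 2 and the highest Elmo1-/- library 3, so one genotype held both ends. The log2 fold change was −0.04 (SE 0.08, 95% interval −0.21 to 0.14; limma adjusted p = 0.999928).

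In the GM-CSF and IL-3 axis, the beta chain Csf2rb was at 8375, 7844, 9916 and 8785 normalized counts in Elmo1+/- and at 8636, 8420, 9110 and 9732 in Elmo1-/-, with a log2 fold change of 0.04 (SE 0.09, 95% interval −0.16 to 0.24; limma adjusted p = 0.999928). Its near copy Csf2rb2 was at 3336, 3232, 4190 and 3983 in Elmo1+/- and at 3753, 4188, 4036 and 4195 in Elmo1-/-, with a log2 fold change of 0.14 (SE 0.10, 95% interval −0.08 to 0.36; limma adjusted p = 0.999928). Elmo1+/- libraries 1 and 2 were the lowest for Csf2rb2, while the other 6 libraries lay between 3753 and 4195.

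The GM-CSF receptor alpha chain Csf2ra was at 3199, 3274, 2503 and 2158 normalized counts in Elmo1+/- and at 3548, 2612, 2626 and 2559 in Elmo1-/-. Elmo1-/- library 1 stood far above the other 3 libraries of its genotype, which lay within 2559 to 2626. The log2 fold change was 0.03 (SE 0.16, 95% interval −0.33 to 0.40; limma adjusted p = 0.999928).

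Il3ra was at 501, 479, 288 and 277 normalized counts in Elmo1+/- and at 659, 403, 315 and 296 in Elmo1-/-. In both genotypes libraries 1 and 2 were above libraries 3 and 4, and the spread within a genotype was larger than the difference between them. The log2 fold change was 0.09 (SE 0.29, 95% interval −0.58 to 0.76; limma adjusted p = 0.999928).

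Among the receptors of other myeloid growth factors, Csf3r was at 1025, 905, 697 and 620 normalized counts in Elmo1+/- and at 1364, 681, 724 and 836 in Elmo1-/-. The highest library was again Elmo1-/- library 1. The summed granulocyte and progenitor markers were also highest there, 22657 against 10394 to 21553 in the others. Most of that sum was S100a8, at 16438 there and highest, at 17708, in Elmo1+/- library 2. S100a9, Ltf, Ngp, Camp and Ly6g were highest in Elmo1-/- library 1. Mpo, Prtn3, Ctsg and Elane were highest in Elmo1+/- library 4, which had the lowest Csf3r value. Apart from S100a8, S100a9 and Ly6g, these markers were chosen after their values were seen. The part of granulocytes and progenitors in the Csf3r value was not tested. The log2 fold change was 0.12 (SE 0.24, 95% interval −0.42 to 0.66; limma adjusted p = 0.999928). Kit was at 11.0, 21.8, 15.2 and 15.2 in Elmo1+/- and at 19.9, 19.2, 18.4 and 20.2 in Elmo1-/- (log2 fold change 0.32, SE 0.23, 95% interval −0.22 to 0.85, limma adjusted p = 0.999928). Summed mast cell and basophil markers were low, between 16.7 and 44.5.

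**Figure D1:**
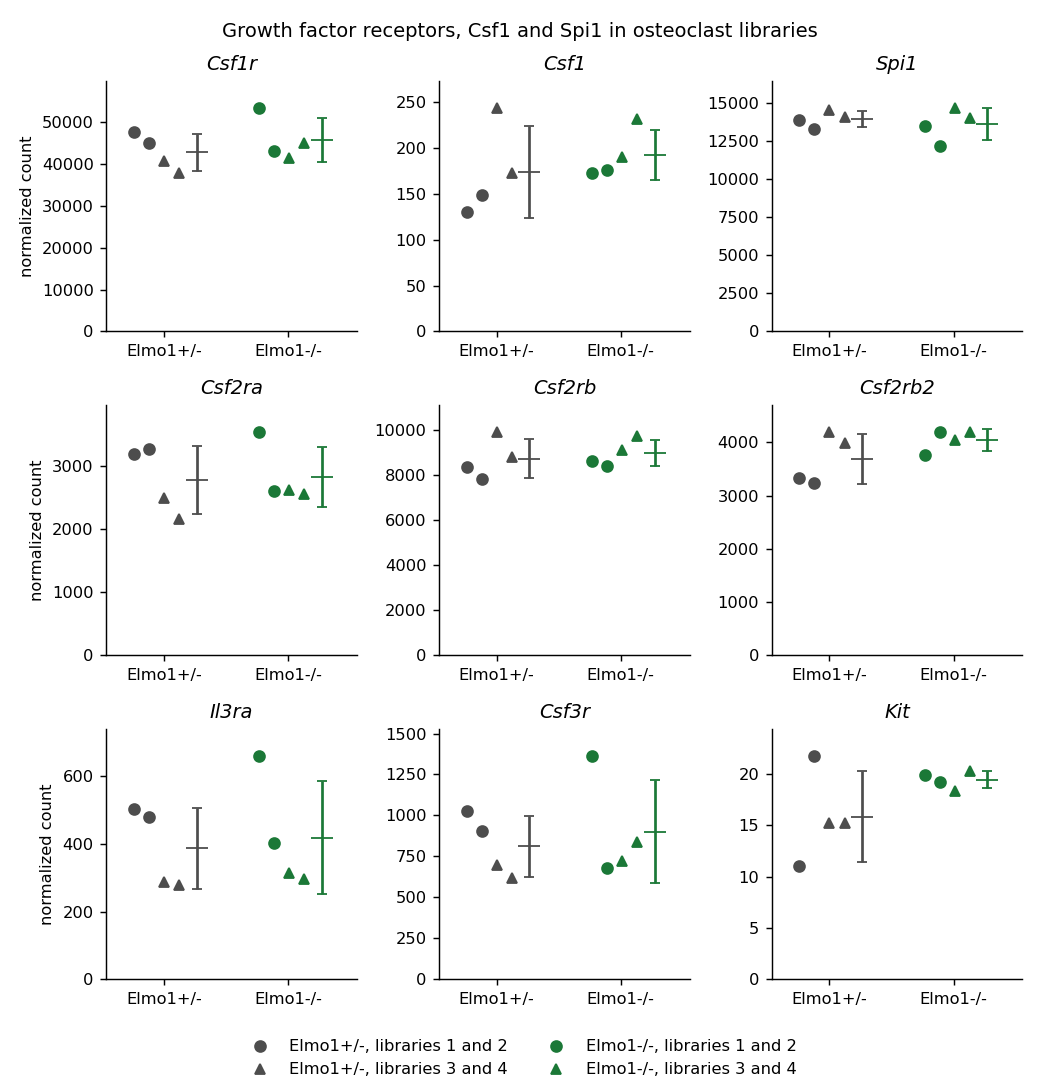
Normalized count (vertical axes, from 0) of each gene in each library, with circles for libraries 1 and 2 and triangles for libraries 3 and 4, grey for Elmo1+/- and green for Elmo1-/-; the bars give the mean and SD of 4 libraries. In every panel the genotypes overlap, while Il3ra lies at 403 to 659 in all circles and at 277 to 315 in all triangles.

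In all, 0 of the 9 genes passed an adjusted p of 0.05 in limma, and 0 of 9 had an unadjusted p under 0.05; without Elmo1+/- library 3, 1 of 9 had, Csf1 (log2 fold change 0.36, limma adjusted p = 0.999874). Over all 14139 genes tested, 0.00707% were called, which was Elmo1 alone, and 0.941% had an unadjusted p under 0.05. The libraries of the genotypes did not overlap for 0.941% of all genes and for 0 of the 9. The median log2 fold change was 0.09 over the 9 genes, beside −0.0031 over all genes tested. For 8 of the 9 genes, 3 of the 4 same-numbered pairs were higher in Elmo1-/-, and for Spi1 1 of 4 was. The share of all genes with such counts was not determined. The counts came from the same 8 libraries, so they are not independent of each other. The intervals are those of the fit by genotype alone, which leaves differences between library numbers in the error. In that fit, the intervals of Csf1, Csf3r, Il3ra and Kit did not exclude a log2 change as large as 0.63, 0.66, 0.76 and 0.85. Intervals from the fits with a block or a term for the split are not given here.

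**Figure D2:**
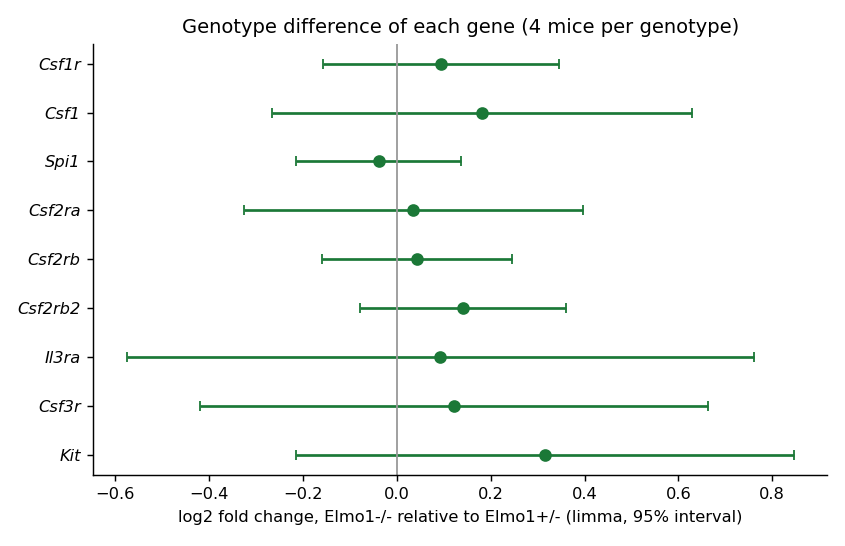
Log2 fold change of each gene in Elmo1-/- relative to Elmo1+/- (points, horizontal axis) with its 95% interval from limma, 4 libraries a genotype. All 9 intervals include 0, and they are narrowest for Spi1, −0.21 to 0.14, and widest for Il3ra, −0.58 to 0.76.

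For 8 of the 9 genes, more of the variation lay between library numbers than between genotypes, and Kit was the exception. The share of each gene's sum of squares that lay between libraries 1 and 2 and libraries 3 and 4 was 81.3% for Il3ra, 66.3% for Csf2rb, 62.0% for Csf2ra, 54.4% for Spi1 and 54.2% for Csf1. It was 47.5% for Csf1r, 42.6% for Csf2rb2, 37.6% for Csf3r and 0.159% for Kit, while the median over all genes was 43.2%. The share between genotypes had a median of 3.24% over all genes and ran among the 9 from 0.597% for Csf2ra to 31.5% for Kit. Because the numbers were read as a split after it was seen in these libraries, the values below are given as a description.

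Il3ra was 0.77 lower on the log2 scale in libraries 3 and 4, Csf3r 0.43 lower, Csf2ra 0.35 lower and Csf1r 0.20 lower, each written as the size of the mean difference. Csf1 was 0.41 higher, Csf2rb2 0.18 higher, Csf2rb 0.17 higher and Spi1 0.12 higher, and Kit differed by −0.02. By mean, the alpha chains of the GM-CSF and IL-3 receptors were thus lower where the common beta chain was higher. The libraries of Csf2ra overlapped by number, at 2612 to 3548 in libraries 1 and 2 and at 2158 to 2626 in libraries 3 and 4. The ranges of the libraries did not overlap for 3 of the 9, Csf2rb and Spi1 in the upward direction and Il3ra in the downward, beside 34.0% of all genes. The share of the 9 was therefore near that of all genes.

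Elmo1-/- library 2 decided most of the overlaps. Without it, 8 of the 9 genes did not overlap, beside 52.4% of all genes, with Csf1, Csf2rb, Csf2rb2 and Spi1 higher and Csf1r, Csf2ra, Csf3r and Il3ra lower in libraries 3 and 4. Within Elmo1+/- alone, the same 8 genes did not overlap, beside 67.5% of all genes. Within Elmo1-/- alone, Csf1, Csf2rb, Spi1 and Il3ra did not overlap, beside 56.4% of all genes. Summed osteoclast markers were at 450909 to 692445 in libraries 1 and 2 and at 1029110 to 1173010 in libraries 3 and 4, and summed granulocyte and progenitor markers at 13178 to 22657 and 10394 to 13971. Of the 6 macrophage markers, the mean was lower in libraries 3 and 4 for 4 and higher for 2. The libraries did not overlap for 3 of the lower ones, beside 15.8% of all genes. The part of these cell types in the differences of the 9 genes was not tested, and in bulk cultures fewer cells of a type and less RNA per cell cannot be told apart.

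**Figure D3:**
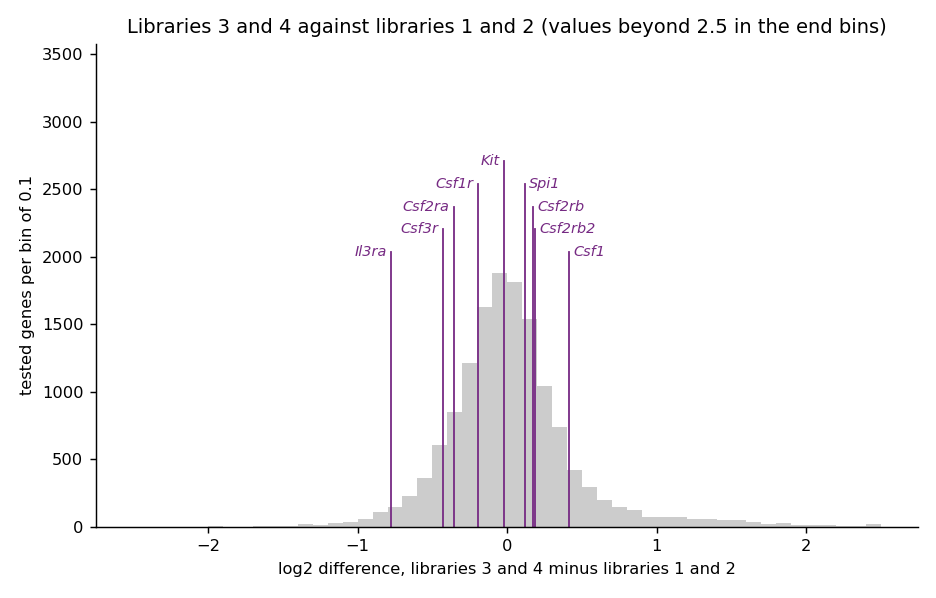
Number of tested genes per bin of 0.1 (vertical axis) by their log2 difference between libraries 3 and 4 and libraries 1 and 2 (horizontal axis), with lines for the 9 genes. Il3ra, at −0.77, and Csf1, at 0.41, are the outermost lines on either side, and Kit, at −0.02, lies near the middle; the heights of the lines carry no value.

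Ratios within a library do not depend on its scaling, but their size depends on the exon length used for each gene. The ratio of Csf2ra to Csf2rb, per kilobase, was 0.822 ± 0.223 in Elmo1+/- and 0.806 ± 0.164 in Elmo1-/- (SD, n = 4 each), and the genotypes overlapped. By number, it was 0.786 to 1.06 in libraries 1 and 2 and 0.623 to 0.731 in libraries 3 and 4, without overlap. Per count, without division by length, the ratio was 0.324 ± 0.088 in Elmo1+/- and 0.318 ± 0.065 in Elmo1-/-. The ratio of Csf2rb2 to Csf2rb, per kilobase, was 0.647 ± 0.036 and 0.693 ± 0.048 by genotype, with overlap by genotype and by number. It lay between 0.611 and 0.764 in all 8 libraries. Per count it was lower, 0.422 ± 0.023 in Elmo1+/- and 0.452 ± 0.031 in Elmo1-/-, and lay between 0.398 and 0.497. The per-kilobase ratio is larger because the merged exons of Csf2rb, 7277 bases, are longer than those of Csf2rb2, 4740 bases. The longest transcript of Csf2rb has 4900 bases.

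The ratio of Csf1 to Csf1r was 0.00452 ± 0.00159 in Elmo1+/- and 0.00466 ± 0.000895 in Elmo1-/-. It lay between 0.00297 and 0.00446 in libraries 1 and 2 and between 0.00497 and 0.00654 in libraries 3 and 4. The cells' own M-CSF transcript was thus far below that of its receptor in all 8 libraries.

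**Figure D4:**
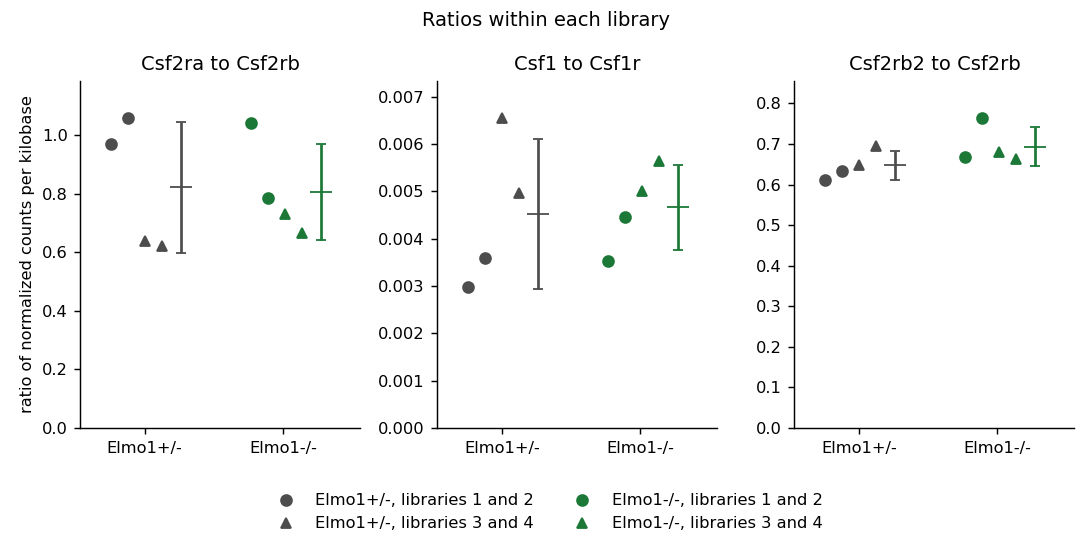
Ratio of normalized counts per kilobase within each library (vertical axes, from 0), with circles for libraries 1 and 2, triangles for libraries 3 and 4, and bars for the mean and SD of 4 libraries. Circles lie above triangles for Csf2ra to Csf2rb, below them for Csf1 to Csf1r, and among them for Csf2rb2 to Csf2rb.

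The transcripts of the ligands of these receptors were at very different levels in the cultures, and ligand protein was not measured. Csf3, which encodes G-CSF, was the most abundant, at 682 normalized counts per kilobase on average, from 515 to 954. Il34, the other ligand of the M-CSF receptor, was at 84.6, from 16.4 to 159, and Kitl, which encodes stem cell factor, at 15.9, from 2.88 to 32.8. Il34 was 1.84 higher on the log2 scale in libraries 3 and 4, and its libraries did not overlap by number. In normalized counts Il34 was at 71.7, 72.2, 312 and 203 in Elmo1+/- libraries 1 to 4 and at 32.2, 136, 235 and 264 in Elmo1-/-.

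Csf2, the GM-CSF transcript, was at 0.946 to 6.68 normalized counts, under the minimum of 10 for a test. Il3 had no read in any library, and a count of 0 allows up to 3 reads in each, by counting error alone. Il5 was at 0 to 0.989 and the IL-5 receptor alpha chain gene Il5ra at 0.920 to 18.3, so the transcripts of the ligands that use the common beta chain were at or near 0 in these cultures. Flt3, a receptor of early progenitors, was at 1.20 to 7.00. Of the 3 ligand genes that could be tested, Csf3, Il34 and Kitl, 0 were called between genotypes (log2 fold changes −0.23, −0.06 and −0.19).

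**Figure D5:**
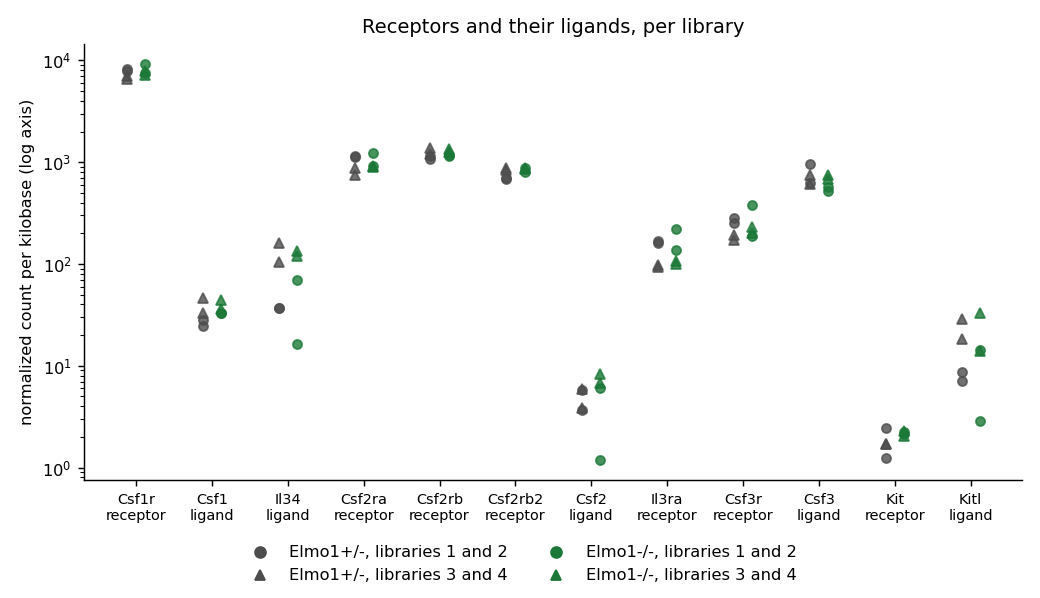
Normalized count per kilobase (vertical axis, logarithmic) of 12 receptor and ligand genes in each library, with circles for libraries 1 and 2 and triangles for libraries 3 and 4. Csf1r is the highest of the 12 genes drawn, at 6561 to 9253, and Csf2 and Kit are the lowest; Il3, Il5, Il5ra and Flt3 are not drawn.

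The rest of the pathway was read from lists of 75 genes, of which 65 could be tested, and 0 were called between genotypes. In the list for signalling below the M-CSF receptor, all 20 genes were tested and their log2 fold changes ran from −0.09 to 0.13 with a median of 0.0039. The most abundant were Ptpn6, the phosphatase SHP-1 that dampens receptor signals, at 13085 to 16060 normalized counts, and Akt1, a survival kinase, at 8227 to 9954. By number, the mean was higher in libraries 3 and 4 for 8 of the 20 and lower for 12, of which 5 and 7 did not overlap, beside 18.1% and 15.8% of all genes. Src, the kinase that osteoclasts need for the ruffled border, was 0.86 higher there, and Pik3cd, a catalytic subunit of PI3 kinase, was 0.41 lower; Src and Pik3cd were chosen after their values were seen.

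Among the 12 genes that act below the common beta chain, log2 fold changes ran from −0.19 to 0.28. Ptpn11, the phosphatase SHP-2, was at 3934 to 4851 normalized counts and Jak2, the kinase bound to the beta chain, at 3132 to 3888. Cish, a feedback gene that STAT5 switches on, was the lowest at 19.0 to 31.7, with a log2 fold change of 0.28 (SE 0.19). By number, the mean was higher in libraries 3 and 4 for 5 of the 12 and lower for 7. The libraries did not overlap for 1 higher gene, Ptpn11, and 1 lower gene, Bcl2l1, which encodes the survival protein Bcl-xL and was chosen after its values were seen, beside 18.1% and 15.8% of all genes.

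Of 22 partners of Spi1 and other myeloid factors, 18 were tested and their log2 fold changes between genotypes ran from −0.96, for the early response gene Egr1, to 0.12, for Mitf, the osteoclast partner of PU.1; neither passed the test, and both were chosen after their values were seen. Egr1 was at 1137 in Elmo1+/- library 1 and at 44.2 to 186 in the other 7 libraries, and without that library its log2 fold change was 0.05 (SE 0.54). The most abundant were Ets2, at 12895 to 18696, and Maf, at 4564 to 6225, and Gata1, the erythroid factor that opposes PU.1, was at 0 to 1.52. By number, the mean was lower in libraries 3 and 4 for 14 of the 18 and higher for 4, and the libraries did not overlap for 8 lower and 2 higher genes, beside 15.8% and 18.1% of all genes. Irf8, which holds precursors back from the osteoclast fate, was 0.56 lower, while Gata2 and Egr2 were higher; these 3 were chosen after their values were seen.

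The 12 known targets of PU.1 listed had log2 fold changes between genotypes from −0.30 to 0.41. Lyz2, the lysozyme gene of macrophages, was the most abundant at 1004240 to 1705520 normalized counts, Ctsk the next and Tlr4, the receptor for endotoxin, the lowest at 1587 to 2461. Although Spi1 was 0.12 higher in libraries 3 and 4, its listed targets went both ways by number, with a higher mean for 5 of the 12 and a lower mean for 7. The libraries did not overlap for all 5 of the former, the osteoclast genes Ctsk, Acp5, Nfatc1 and Tnfrsf11a and the kinase gene Btk, and for 3 of the latter, Lyz2, Cd14 and Itgam, beside 18.1% and 15.8% of all genes. Of these, Acp5, Nfatc1, Tnfrsf11a, Btk, Cd14 and Itgam were chosen after their values were seen.

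Across the 8 libraries, the profile most like that of Csf1r belonged to Cdipt, followed by Fam53a and Leprotl1, by the root mean square difference of log2 values centred on each gene's mean. For Cdipt this was 0.0379, while the spread of Csf1r around its own mean was 0.142 by the same measure. The median over all tested genes was 0.222, and the nearest gene lies below it by the way it was picked. The nearest to Csf2rb were a gene without a symbol in the tables used, ENSMUSG00000029333, at 0.0267, and then Bcas3 and Fggy. The nearest to Spi1 were Hectd3, Cox5b and Pi4k2a, the first at 0.0279. Csf2rb and Spi1 themselves spread by 0.106 and 0.080 around their means.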

How the data were processed

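mRNA libraries of 8 osteoclast cultures were sequenced as 75-base paired-end reads. The submitters' processing notes name FastQC, STAR, featureCounts and DESeq2, and no source used here gives their versions, the genome build or the annotation. The deposited signal values are counts per gene that the authors divided by DESeq2 size factors. Another 6 columns hold the authors' own fold changes, p-values and related statistics and were not used. All values were whole multiples of the worth of 1 read (100% within 0.01), which gave library totals of 20905502 to 40846651 reads; this depth covers counting error only. Of 46517 identifiers, 46005 were paired with a symbol, and exon lengths came from GENCODE release M21.

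Genes with at least 10 normalized counts in at least 4 libraries (14139) were tested on log2(value + 1) with limma 3.58.1 (trend and robust options; R 4.3.3) between 4 Elmo1-/- and 4 Elmo1+/- libraries, with Benjamini-Hochberg adjustment over all genes tested and no block. Fold changes are on the log2(value + 1) scale, which understates changes of low genes. The scripts were tested on simulated data. No 2 libraries were copies: their reads differed by more than sampling noise (a chi-square of at least 8.58 per gene in pairs of the same genotype). Same-numbered libraries deviated together (correlation of deviations from the genotype means 0.156 to 0.703 over 4 pairs, each over 0.1), so the numbers were taken to pair the samples, from the data alone; libraries of other numbers on the same side of the split (1 and 2, or 3 and 4) reached 0.0259 to 0.691, so the numbers cannot be told apart from that split. Alternatives covered scaling, filters, pseudocounts, the block and each library left out. The 9 genes, the lists and the split by library number were chosen with earlier results of these data known. Named genes were the 9 genes, Elmo1, the 2 most abundant genes and the lowest of each list, any listed gene called or without overlap between genotypes, and the 3 nearest profiles of Csf1r, Csf2rb and Spi1; others are named as chosen after their values were seen.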

Additional observations from a re-analysis of the deposited data

Results flagged for a closer look

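In 24 groups of 4 libraries examined (the 9 genes and 3 ratios in each genotype), 1 held a library far from the others, where chance gives about 1 in 20. It was Csf2ra in Elmo1-/-, whose highest library, number 1, was at 3548 normalized counts, and the gap to the next library was 0.933 of the whole range, above Dixon's critical value for 4 samples. The same library had the lowest summed osteoclast markers, 450909.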

How the results depend on the processing

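None of the 9 genes and none of the listed genes was called under any alternative run, and the lowest adjusted p of the 9 genes was 0.936. The planned edgeR and DESeq2 tests of all 8 libraries were not run, because an automatic check refused Elmo1+/- library 2. In it the worth of 1 read, 0.989, was close to 1, although its values were whole multiples of that worth. Instead, edgeR 4.0.16 and DESeq2 1.42.0 were run on the other 7 libraries, a choice made after seeing the data. Over all genes, 1 gene was called in the limma test and 2 in edgeR and 4 in DESeq2 on the 7 libraries, and 1 to 2 with each library left out, the 2 being without Elmo1+/- library 2 (Elmo1 and Gpr137b-ps; DESeq2 added Sugct and Ero1lb). With the replicate number as a block, the pairing changed no call (1 gene). Directions that reversed were of genes that were not called. With each library left out, the log2 fold change ran from −0.080 to 0.12 for Csf2ra, from −0.0067 to 0.11 for Csf2rb, from −0.10 to 0.24 for Csf3r, from −0.15 to 0.24 for Il3ra and from −0.076 to 0.013 for Spi1. Without a change of direction, it ran from 0.02 to 0.15 for Csf1r, from 0.06 to 0.36 for Csf1, from 0.08 to 0.21 for Csf2rb2 and from 0.17 to 0.47 for Kit. Csf2ra was at −0.0090, −0.080 and −0.077, and Il3ra at −0.03, −0.05 and −0.15, without Elmo1+/- library 3, Elmo1+/- library 4 and Elmo1-/- library 1. Csf3r was at −0.10 without Elmo1-/- library 1, Spi1 at 0.013 without Elmo1-/- library 2 and Csf2rb at −0.0067 without Elmo1+/- library 2, at −0.0098 in edgeR and at −0.0091 in DESeq2. The 3 genes without overlap by number became 8 in Elmo1+/- alone and 3 to 8 with each library left out, the 8 being without Elmo1-/- library 2. The cause was not tested.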
